A study of Arabidopsis thaliana with 27 samples.

Results

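The change from bent to mature seeds was followed at a mean of 25 °C, the mild heat stress of the study. Whole seeds of Arabidopsis thaliana accession Col-0, a wild type in wide laboratory use, were harvested when the embryo was at the bent stage and again at the mature stage. At first flowers the mother plants were moved to days of 26 °C and nights of 24 °C. There were 3 RNA sequencing libraries of bent and 3 of mature seeds, 6 of the 27 libraries of the series, and they were chosen by their labels alone. The other libraries came from the heart stage at 25 °C and from all 3 stages at 23 °C (control, with 24 °C days and 22 °C nights) and 27 °C (severe stress, with 28 °C days and 26 °C nights), with 3 libraries in each of the 9 groups and no mutant or transgene in any. Entire seeds were used, so embryo, endosperm and seed coat contributed RNA to each library, and fewer cells of a type cannot be told apart from less RNA per cell.

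Between the bent and the mature stage the embryo stops dividing and fills with reserves. Storage proteins, which are cruciferins (globulins) and albumins, collect in vacuoles, and oil collects in bodies coated with oleosins. The transcription factors LEC1, LEC2, FUS3 and ABI3 and the hormone abscisic acid are known to direct this phase, and late embryogenesis abundant (LEA) proteins prepare cells for drying. Around the embryo the seed coat makes flavonoids and mucilage and then dies, after laying down the lipid polyester suberin and its waxes, while the endosperm shrinks to a thin layer. B3 factors such as ABI3 and FUS3 bind the RY element, and bZIP factors such as EEL and ABI5 bind abscisic acid response elements (ABRE) with an ACGT core.

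The promoters of 4 reserve and desiccation genes and of 2 suberin genes are shown first, because the medians of the storage and suberin lists were similar and the promoters printed differ in these letters. The 250 bases before the annotated gene start are printed from 5′ to 3′ on the strand of the gene, from assembly TAIR10.1 with RefSeq gene models. Capitals mark the RY core (CATGCA), the ABRE cores (ACGTGT or ACGTGG) and the G-box (CACGTG), on either strand, and a G-box can overlap an ABRE core. CRU3 encodes a cruciferin, SESA3 an albumin, OLEO1 an oleosin and LEA (AT2G21490) a dehydrin. MYB9 is a transcription factor of suberin synthesis and GPAT5 an acyltransferase that makes suberin monomers.
CRU3, chr4:14087306-14087555, plus strand: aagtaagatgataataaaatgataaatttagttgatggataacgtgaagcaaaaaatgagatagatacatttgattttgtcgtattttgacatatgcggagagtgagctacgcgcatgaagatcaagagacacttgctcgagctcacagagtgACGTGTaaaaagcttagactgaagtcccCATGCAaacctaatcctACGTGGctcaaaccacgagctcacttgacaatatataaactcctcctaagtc
SESA3, chr4:13611546-13611795, plus strand: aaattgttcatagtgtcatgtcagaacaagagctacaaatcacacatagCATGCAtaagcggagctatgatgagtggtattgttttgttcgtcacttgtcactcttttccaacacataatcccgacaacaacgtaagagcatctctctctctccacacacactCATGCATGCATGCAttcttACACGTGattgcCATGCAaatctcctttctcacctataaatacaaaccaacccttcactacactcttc
OLEO1, chr4:12900180-12900429, plus strand: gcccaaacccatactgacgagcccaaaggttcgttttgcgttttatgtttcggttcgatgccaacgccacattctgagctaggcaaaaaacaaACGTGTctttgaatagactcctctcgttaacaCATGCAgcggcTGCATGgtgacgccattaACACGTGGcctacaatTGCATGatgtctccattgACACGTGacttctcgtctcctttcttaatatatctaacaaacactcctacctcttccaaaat
LEA, chr2:9207126-9207375, minus strand: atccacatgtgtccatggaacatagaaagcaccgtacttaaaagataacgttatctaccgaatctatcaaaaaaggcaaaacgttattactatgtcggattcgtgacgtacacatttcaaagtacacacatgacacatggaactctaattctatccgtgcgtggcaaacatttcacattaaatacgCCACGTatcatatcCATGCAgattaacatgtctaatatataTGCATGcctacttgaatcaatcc
MYB9, chr5:5514467-5514716, plus strand: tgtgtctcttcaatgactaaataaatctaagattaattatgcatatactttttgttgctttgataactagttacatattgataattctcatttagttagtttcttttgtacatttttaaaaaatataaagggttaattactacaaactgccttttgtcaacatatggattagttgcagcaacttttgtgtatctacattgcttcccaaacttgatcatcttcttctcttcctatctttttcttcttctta
GPAT5, chr3:3595444-3595693, plus strand: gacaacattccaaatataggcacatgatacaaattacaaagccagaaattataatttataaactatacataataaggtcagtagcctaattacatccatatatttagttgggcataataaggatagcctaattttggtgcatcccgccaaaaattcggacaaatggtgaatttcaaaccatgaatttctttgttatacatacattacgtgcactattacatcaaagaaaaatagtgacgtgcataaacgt

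The printed SESA3 sequence held 7 RY cores, counting overlapping ones, and that of OLEO1 held 3 RY cores and 4 ABRE cores. CRU3 held 1 and 2, and LEA held 2 and 1. In the printed bases of MYB9 and GPAT5 there was none. Other members of these lists break the contrast of the printed promoters. In their 250 bases the storage gene CRU2 held 0 RY and 0 ABRE cores. The suberin gene FACT held 2 RY cores, and MYB107 and FAR1 held 1 ABRE core each. Over windows from 250 bases before to 50 after the gene start, 11 of 13 storage protein genes and 8 of 8 oil body genes held an RY core, against 9.08% of the 21376 windows of all genes tested. An ABRE core was present in 13 of 14 tested LEA genes (92.9%), 69.2% of storage protein genes and 4324 of all 21376. Of 15 suberin genes, 1 held an RY core and 2 an ABRE core. Among 107 genes that rose at least 32-fold with a mean normalised count of at least 100, 31.8% held an RY core and 34.6% an ABRE core. An ABRE core was no rarer in some lists where few genes rose, with 36.8% of mitosis, 41.2% of flavonoid and 44.4% of antenna genes. It was rarer in others, such as ribosomal protein genes (13.7%). The telo-box (AACCCTA) was in 134 of 328 ribosomal protein genes (40.9%) and in 8.14% of all. A match of letters is no proof of a bound site.

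Depth differed little. The 6 libraries held 18215637 to 19199509 counts, and 17227267 to 19445842 over all 27. Across genes, log2 normalised counts of replicates correlated with r = 0.975 to 0.984 in bent and 0.968 to 0.975 in mature seeds, and with r = 0.788 to 0.893 between stages. The chi-square per gene was 7.02 to 10.1 between bent and 24.3 to 49.8 between mature replicates, where sampling noise alone gives about 1, so all libraries were counted separately. The labels do not say whether replicates came from separate plants, so p-values speak for these samples only. They rest on 1 spread per gene fitted over all 27 libraries, so the wider spread between mature replicates is not modelled apart. The top 20 genes by count took 5.19 to 5.59% of each bent library and 20.9, 13.8 and 19.9% of mature replicates 1, 2 and 3. Replicate 2 of mature seeds thus stood apart, with a share nearer to that of bent seeds. Markers of embryo, endosperm and seed coat were all present. Pollen markers held 0.000291 to 0.00215% of the counts, with the highest share in mature replicate 2, and 0 of 7 tested were called, or 2 as lower without that replicate. Their part in the results was not tested.

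Of 21445 genes tested, 5016 (23.4%) were higher and 4820 (22.5%) lower in mature than in bent seeds (DESeq2, adjusted p under 0.05, n = 3 per group). Without mature replicate 2 the counts were 4980 and 4643. By at least 2-fold, 1428 (6.66%) were higher and 1524 (7.11%) lower. The rises ran further than the falls: 176 genes rose and 20 fell at least 32-fold, and 52 and 0 at least 256-fold. These directions are relative to the median gene, whose log2 change was -0.01. With libraries scaled to their totals that median was -0.37, and 1929 genes were called higher and 10798 lower, so 15.2% of calls were rises against 51.0% above.

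**Figure D1:**
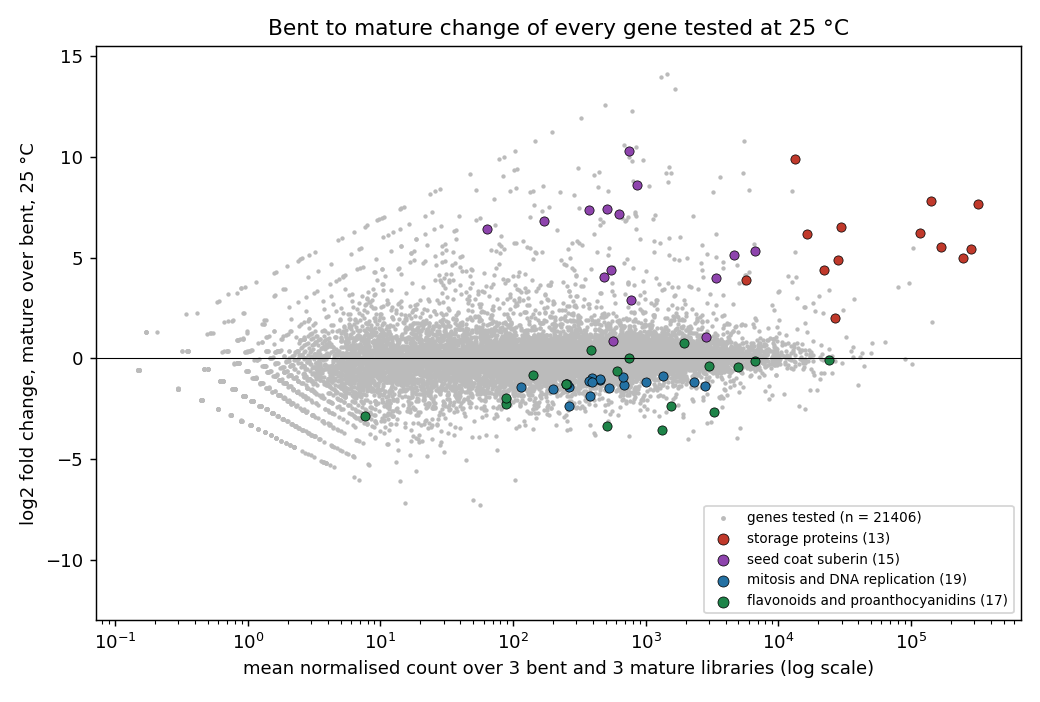
Log2 fold change, mature over bent seeds at 25 °C, against the mean normalised count over the 6 libraries (log scale). Grey points are genes with a count in some of them (AT3G60730, fitted at 27.42, lies above the axis), and coloured points are members of 4 gene lists. Storage protein genes lie at 1.99 to 9.89 on the right, while mitosis genes lie between -2.36 and -0.90.

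Storage protein genes rose to a large share of the RNA counts. The 13 genes of the list held 0.517, 0.273 and 0.275% of all counts in bent and 15.6, 8.5 and 14.2% in mature replicates 1, 2 and 3, a 36.0-fold difference of the means (exact permutation p = 0.1, two-sided, the smallest that 3 against 3 libraries can give). The groups did not overlap for any member, as for 11364 of all 21445 genes tested (53%). Of the members 12 rose (92.3%) and 0 fell, against 23.4% and 22.5% of all genes tested, with a median log2 change of 5.51. The adjusted p of the remaining one, CRA1, was withheld because of a count that departs from the model. CRU3 (AT4G28520, chromosome 4, 14087556 to 14089796) had 5461, 2434 and 1670 normalised counts in bent and 852223, 334747 and 742670 in mature seeds. All bent libraries were far below all mature ones, and the log2 change was 7.66 ± 0.88 (SE, adjusted p = 1.1e-16). The heart stage had a mean of 4.26, so nearly all of its counts appeared after the bent stage.

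The cruciferin CRU2 rose from 2097, 1073 and 673.2 to 379201, 157623 and 310911 normalised counts (log2 7.79 ± 0.82, adjusted p = 1.34e-19). CRA1, another cruciferin, had 20583, 13153 and 11193 in bent and 578172, 293093 and 570684 in mature seeds. The largest change in the list was that of AT1G03890, a cupin next to CRU2 on chromosome 1, from 57.6, 17 and 9.87 to 41098, 15349 and 23644 (log2 9.89 ± 1.12, adjusted p = 4.29e-17).

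The albumin genes SESA1, SESA2, SESA3, SESA4 and SESA5 rose by 5.40 to 6.51 on the log2 scale. SESA3 had 21887, 8192 and 9170 counts in bent and 701621, 362513 and 594813 in mature seeds (log2 5.40 ± 0.91, adjusted p = 2.45e-08). Per kilobase of transcript, SESA3 was the highest of the 10 most abundant genes in mature seeds, at 853702 normalised counts, followed by SESA2 at 498340 and SESA4 at 416784, against 249202 for CRU3. SESA1 to SESA4 lie side by side and have similar sequences, so the split of reads among them is uncertain. The vicilin-like PAP85 rose by 4.86 ± 0.99 (adjusted p = 5.92e-06), and 3 further cupins, AT2G18540, AT2G28490 and AT4G36700, rose by 3.89, 4.38 and 1.99. AT4G36700 was the one storage gene with a heart mean above 100 (658.6).

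**Figure D2:**
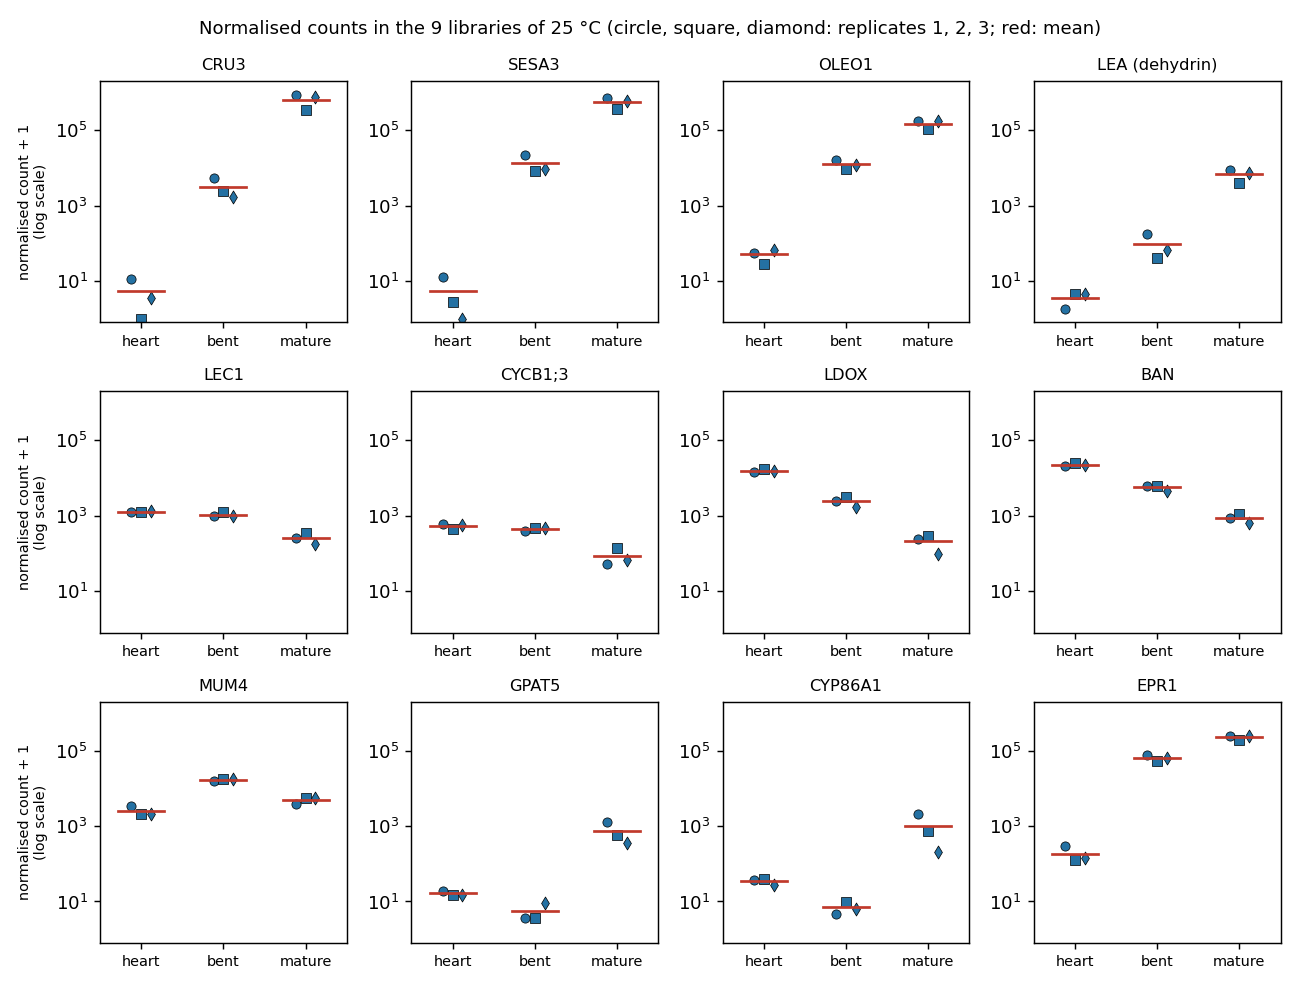
Normalised counts plus 1 (log scale) of 12 genes in the heart, bent and mature libraries at 25 °C, with a red line at the mean of 3. CRU3 and SESA3 climb from heart means of 4.26 and 4.56, LDOX and BAN fall at both steps, MUM4 is highest in bent seeds, and GPAT5 and CYP86A1 are high in mature seeds alone of these stages.

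Of 8 oil body genes 7 rose (87.5%) and 0 fell, against 23.4% and 22.5% of all genes tested. The adjusted p of the oleosin AT3G01570 was withheld (log2 2.42 ± 0.61). The list held 0.216 to 0.352% of the counts in bent and 1.97, 1.39 and 1.89% in mature seeds. OLEO1, the major oleosin, rose from 16595, 9339 and 11831 to 171869, 104772 and 169168 (log2 3.56 ± 0.72, adjusted p = 5.32e-06). OLEO2 and OLEO4 rose by 2.94 and 3.08, and OLEO3, which was already at 469.3 in heart seeds, by 1.32 ± 0.31. The caleosins ATPXG2 and ATS1, which bind calcium on oil bodies, rose by 5.62 and 4.08, and HSD1, a steroleosin, by 5.27. The median change was thus 3.32, against 5.51 for storage protein genes.

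Enzymes of fatty acid and oil synthesis moved less. Of 18 genes 12 rose (66.7%) and 1 fell (5.56%), against 23.4% and 22.5% of all genes tested, with a median of 0.42. The list held 0.728 ± 0.0322% (SD, n = 3) of counts in bent and 0.910 ± 0.0300% in mature seeds. FAD3, which makes linolenic acid, rose most, from 2675, 2482 and 2256 to 20390, 11158 and 14862 (log2 2.65 ± 0.18, adjusted p = 2.75e-46). FAD2, the desaturase before it, rose by 1.04 ± 0.16 from 22015, 20276 and 21614 to 45307, 39405 and 47120. PKP-BETA1, a plastid pyruvate kinase subunit, had 0.32 ± 0.16 (adjusted p = 0.0766), and PDAT, an acyltransferase of oil assembly, fell by 0.27 ± 0.12 (adjusted p = 0.0491), a call that was lost without any 1 of the 6 libraries. With totals as scale 5 of the 18 rose and 2 fell.

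LEA genes rose almost throughout. Of 18 genes 14 were tested, 13 rose (92.9%) and 0 fell, against 23.4% and 22.5% of all genes tested, with a median of 3.38. Yet they held 0.125, 0.0674 and 0.108% of the counts in mature seeds, far less than storage proteins. The dehydrin LEA rose from 176.3, 40.2 and 63.7 to 8775, 3926 and 7415 (log2 6.17 ± 0.97, adjusted p = 2.06e-09). AT5G44310, another LEA protein, rose by 4.92 ± 0.75. EM1, a LEA gene of late maturation, had 136.0, 8.17 and 5.92 normalised counts in mature seeds against at most 2.66 in bent seeds, so that its difference rests mainly on mature replicate 1. Of 10 antioxidant genes 3 rose and 2 fell, shares near the 23.4% and 22.5% of all genes tested. PER1, a peroxiredoxin of dry seeds, rose from 915.4, 383.5 and 468.5 to 15024, 7108 and 11897 (log2 4.27 ± 1.00, adjusted p = 0.000102), and APX1, an ascorbate peroxidase, fell by 0.54 ± 0.16.

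In the vacuole list 5 of 7 genes rose (71.4%) and 0 fell, against 23.4% and 22.5% of all genes tested. TIP3;1, a tonoplast aquaporin of storage vacuoles, rose from 721.3, 152.0 and 264.8 to 14140, 5231 and 8797 (log2 4.63 ± 0.99, adjusted p = 1.81e-05). DELTA-VPE and GAMMA-VPE, proteases that process vacuolar proteins, had -0.38 ± 0.21 and 0.28 ± 0.19 (adjusted p = 0.13 and 0.227). DELTA-VPE, known from the inner seed coat, was far higher in heart seeds (92402).

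The regulators moved in both directions. Of 17 genes 16 were tested, 9 rose (56.2%) and 2 fell (12.5%), against 23.4% and 22.5% of all genes tested, with a median of 0.48. LEC1 fell from 972.1, 1259 and 1004 to 258.4, 346.3 and 180.1 normalised counts (log2 -2.04 ± 0.18, adjusted p = 2.43e-26), and LEC2 from 180.8, 244.0 and 253.1 to 89, 112.4 and 64 (-1.35 ± 0.23, adjusted p = 7.15e-08). ABI3 rose from 2346, 2213 and 2438 to 5340, 4723 and 5863 (1.19 ± 0.21, adjusted p = 1.77e-07). The groups overlapped for none of these 3 genes, so the embryonic LEC genes and ABI3 went in opposite directions. FUS3 rose by 0.80 ± 0.22 (adjusted p = 0.000891).

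DOG1, which sets seed dormancy, had 35.4, 17.9 and 17.1 normalised counts in bent and 1498, 545.6 and 1080 in mature seeds (log2 5.47 ± 0.77, adjusted p = 1.64e-11). AGL67, a MADS-box gene, rose from 18.6, 6.26 and 11.7 to 2030, 905.2 and 1284 (6.85 ± 0.85, adjusted p = 3.05e-14). Both were nearly silent at the bent stage. E12A11, also called MFT, which acts in the germination response to abscisic acid, rose by 1.5 ± 0.52 (adjusted p = 0.0117), a call that was lost without bent replicate 2 or mature replicate 3. Of the bZIP factors, DPBF2 rose by 1.56, EEL by 1.30, ABI5 by 0.49 and BZO2H1 by 0.48. BZIP53 and BZIP25 had 0.01 ± 0.13 and 0.03 ± 0.09, NF-YB6, a relative of LEC1, had 0.22 ± 0.23, ABI4 had 0.30 ± 0.15 and WRI1, the regulator of oil synthesis, -0.17 ± 0.20, and none of these 5 passed the test. With totals as scale 7 of the list rose and 5 fell.

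Among genes whose RefSeq description holds the words transcription factor, which leaves out AGL67, MYB9 and LEC1, the largest rises were those of AT4G18650 (2.83 ± 0.49), the MADS-box genes MAF4 (1.88 ± 0.23) and AP3 (1.87 ± 0.21), and DPBF2 and EEL above. AT4G18650 rose from 45.2, 17.9 and 18.8 to 262.1, 102.2 and 220.4 and was at 0 in heart seeds. The largest falls of that group were those of GATA29 (-2.61 ± 0.36), GATA6 (-1.87 ± 0.16), the bZIP gene PAN (-1.51 ± 0.21), AT5G01910 (-1.18 ± 0.23) and AT1G25550 (-1.09 ± 0.16).

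Most clade A protein phosphatases, which hold abscisic acid signalling in check, rose. Of 9 tested 8 rose (88.9%) and 0 fell, against 23.4% and 22.5% of all genes tested, with a median of 0.51. With totals as scale 3 rose, and without mature replicate 1 there were 5. HAI1 rose from 5774, 5011 and 5203 to 9848, 7624 and 9999 (log2 0.78 ± 0.14, adjusted p = 4.46e-07), and AHG1, a seed phosphatase bound by DOG1, by 2.99 ± 0.34. Of 12 tested genes of abscisic acid synthesis and breakdown 4 rose (33.3%) and 1 fell (8.33%), against 23.4% and 22.5% of all genes tested. ABA1, which makes violaxanthin, rose by 0.48 ± 0.15, with overlapping groups, while NCED9, a cleavage enzyme of the same pathway, fell from 1574, 1328 and 2002 to 557.5, 497.6 and 950.1 (-1.29 ± 0.55, adjusted p = 0.0424). That fall was not called without any 1 bent library or without mature replicate 1 or 2, and the rise of ABA1 not without bent replicate 3 or mature replicate 1. NCED2 rose by 2.54 ± 0.56 from a very low level. Of 11 gibberellin oxidases 1 rose and 1 fell (9.09% each), below the shares of all genes tested. GA20OX2, a synthesis gene, rose by 0.73 ± 0.15, GA2OX4, a breakdown gene, fell by 1.56 ± 0.39, and GA20OX3, another synthesis gene, had 0.09 ± 0.26.

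Every gene of the mitosis and DNA replication list fell, against 22.5% of all genes tested. All 19 passed the test, with changes from -0.90 to -2.36 and a median of -1.28, and the groups did not overlap for any of them, against 53% of all genes tested. The list held 0.103, 0.115 and 0.115% of the counts in bent and 0.0264, 0.0555 and 0.0300% in mature replicates 1, 2 and 3, highest in mature replicate 2. Without that replicate all 19 still fell. The cyclin CYCB1;3 fell from 390.8, 464.0 and 463.1 to 50.7, 137.9 and 66.3 (log2 -2.36 ± 0.27, adjusted p = 3.34e-16). SYP111, the syntaxin of the cell plate, fell from 3920, 4419 and 3821 to 1220, 2119 and 1339 (-1.38 ± 0.24), and CDC20.1, an activator of mitotic exit, by 1.18 ± 0.24. Of 47 tested histone genes 33 fell (70.2%) and 3 rose (6.38%), against 22.5% and 23.4% of all genes tested, with a median of -0.93. AT1G21920, the highest riser there, is listed for a word in its description and is not a core histone. AT4G40040 and HTB4, the members with the most counts, had 0.23 ± 0.13 and -0.27 ± 0.14.

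Many ribosomal protein genes fell by a little. Of 328 tested, 166 fell (50.6%) and 6 rose (1.83%), against 22.5% and 23.4% of all genes tested, with a median of -0.32. Their share of counts went from 4.52 to 4.91% in bent to 2.64, 3.56 and 2.97% in mature libraries. LOS1, which the words of its description put here although it is an elongation factor, had 0.07 ± 0.14, and RP1 had -0.12 ± 0.15. The members with the largest called changes, AT2G16360 (1.61) and AT5G19720 (-2.17), had at most 14.3 and 8.05 normalised counts in any library, and setting aside single libraries of the 6 ended either call in 4 cases. With totals as scale 298 fell.

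**Figure D3:**
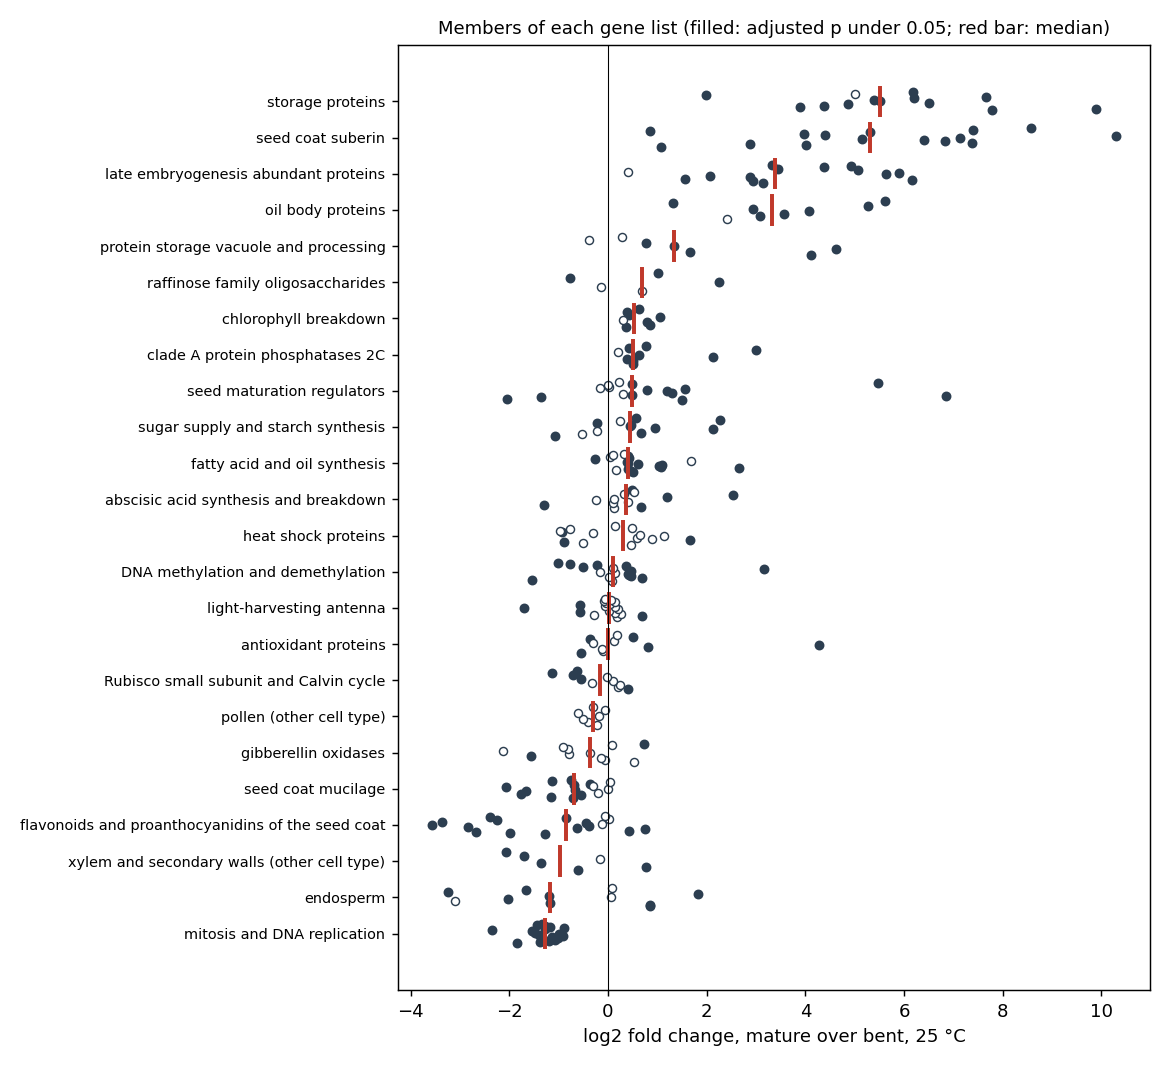
Log2 fold change, mature over bent seeds at 25 °C, of every tested member of 24 gene lists, ordered by median (red bar). Filled points passed the test. Storage, suberin, LEA and oil body genes lie to the right, with medians of 3.32 to 5.51, and mitosis genes to the left, at -1.28.

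The lists of seed coat genes had most of their highest means at different stages. The share of all genes that peak at each stage was not counted. Flavonoid and proanthocyanidin genes, which give the coat its brown colour, were highest on average in heart seeds for 15 of 17 members. From bent to mature seeds 12 of 17 fell (70.6%) and 2 rose (11.8%), against 22.5% and 23.4% of all genes tested. LDOX, which makes anthocyanidins, had a heart mean of 15439, bent counts of 2499, 3148 and 1750 and mature counts of 236.1, 292.2 and 98.3 (log2 -3.56 ± 0.27, adjusted p = 9.81e-36). BAN, which turns them into tannin precursors, fell by 2.67 ± 0.20. F3H, an earlier enzyme, rose by 0.74 ± 0.18. TT10, the laccase that oxidises tannins, had 22633 to 27026 in bent and 21822 to 25546 in mature seeds (-0.06 ± 0.28, adjusted p = 0.878), and TT7, a hydroxylase, had -0.13 ± 0.15.

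Mucilage genes were highest on average in bent seeds for 10 of 15 members. Towards maturity 11 fell (73.3%) and 0 rose, against 22.5% and 23.4% of all genes tested. MUM4, which makes the rhamnose of mucilage pectin, had a heart mean of 2556, bent counts of 15477, 17361 and 18137 and mature counts of 3922, 5557 and 5445 (log2 -1.77 ± 0.26, adjusted p = 1.68e-10). The subtilase ARA12 fell from 25014 to 26617 down to 14970 to 16699 (-0.74 ± 0.15). AT3G50990, a peroxidase, had the largest fall of the list (-2.07 ± 0.91, adjusted p = 0.0494), a call that was lost without any 1 of the 6 libraries.

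Suberin genes were highest on average in mature seeds for all 15 members. All 15 rose, against 23.4% of all genes tested, with a median of 5.30. The groups did not overlap for any of them, against 53% of all genes tested. Their share of counts went from 0.0228, 0.0201 and 0.0212% to 0.279, 0.172 and 0.143%, highest in mature replicate 1. Without that replicate all 15 still rose. MYB9 had 1 to 2 counts in each bent library and 2118, 1368 and 1027 normalised counts in mature seeds, at least 501.4-fold higher against a floor of 3 counts per library. GPAT5 rose from 2.66, 2.68 and 8.08 to 1294, 587.5 and 345.9 (log2 7.38 ± 0.56, adjusted p = 1.16e-36). RWP1, also called ASFT, which adds ferulate to suberin, rose from 600.8, 233.3 and 152.6 to 16979, 10649 and 11376 (5.30 ± 0.42, adjusted p = 1.92e-33). The transporters ABCG20, ABCG6 and ABCG2 rose by 5.15, 7.14 and 4.01, and the hydroxylases CYP86A1 and CYP86B1 by 7.40 and 3.98. FACT, which links caffeate to alcohols of the wax, varied most, with 4778, 330.0 and 47.4 in mature seeds against at most 7.15 in bent seeds (8.58 ± 1.05).

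**Figure D4:**
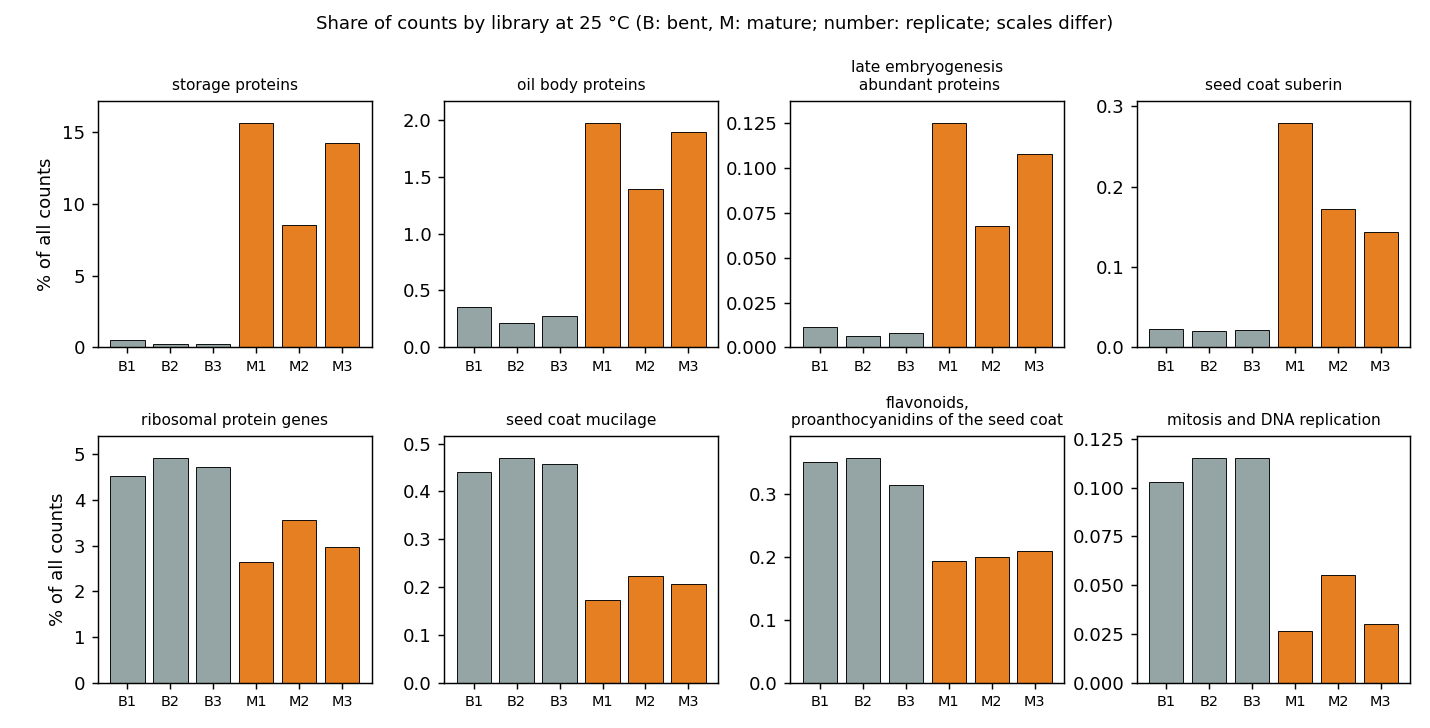
Share of all counts (%) held by 8 gene lists in each bent (B1 to B3) and mature (M1 to M3) library at 25 °C, each panel on its own scale from 0. Storage protein genes hold 8.5 to 15.6% in mature libraries and at most 0.517% in bent ones, and mature replicate 2 has the lowest storage and the highest mitosis share of the mature libraries.

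Endosperm markers went both ways. Of 11 tested 3 rose (27.3%) and 5 fell (45.5%), against 23.4% and 22.5% of all genes tested. EPR1, an extensin-like gene of the endosperm facing the root tip, rose from 76883, 53182 and 62324 to 248030, 188212 and 243960 (log2 1.82 ± 0.57, adjusted p = 0.00432) and had rank 3 by count in bent seeds. ALE1, a protease that helps form the embryo cuticle, fell from 2410, 2839 and 2429 to 573.6, 907.2 and 408.7 (-2.02 ± 0.24, adjusted p = 3.97e-15). FIS2, a Polycomb gene of the early endosperm, fell from 25.7, 45.6 and 44.9 to 1.24, 10.2 and 0 (-3.24 ± 0.58). Of 6 vascular genes, most of them of xylem walls, 4 fell and 1 rose, with a median of -0.98. CESA4, a cellulose synthase of secondary walls, fell by 2.06 ± 0.28, and SUC2, a phloem sucrose carrier, rose by 0.78 ± 0.15.

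Few antenna genes of photosynthesis changed relative to the median gene. Of 18, 1 rose (5.56%) and 3 fell (16.7%), against 23.4% and 22.5% of all genes tested, with a median of 0.03. CAB1 had 43248 to 47700 counts in bent and 46173 to 61737 in mature seeds (0.27 ± 0.18, adjusted p = 0.21), and LHB1B2 had 0.20 ± 0.18. CAB3 rose by 0.69 ± 0.18 and LHB1B1 fell by 1.71 ± 0.41. These genes are near-identical copies, so their split is uncertain. Of 10 Rubisco and Calvin cycle genes 1 rose (10%) and 4 fell (40%). RBCS1A, the main small subunit, had 0.24 ± 0.19, GAPA 0.10 ± 0.16, PRK rose by 0.41 ± 0.13 (not called without mature replicate 3) and RBCS2B fell by 1.13 ± 0.32. Chlorophyll breakdown genes rose a little, 7 of 8, with a median of 0.52. NYE1, which starts the removal of chlorophyll, rose from 1593, 983.3 and 1133 to 3161, 2132 and 2403 (1.05 ± 0.18), ACD1 by 0.85 ± 0.12, and NYC1 had 0.30 ± 0.15 (adjusted p = 0.0962). With totals as scale 12 antenna genes fell and 4 breakdown genes rose.

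Of 12 genes of sugar supply and starch 7 rose (58.3%) and 2 fell (16.7%), against 23.4% and 22.5% of all genes tested. SUS2, a sucrose synthase of maturing seeds, rose from 9748, 6198 and 6647 to 41621, 29068 and 37912 (log2 2.27 ± 0.48, adjusted p = 1.2e-05), and the sugar exporter SWEET11 by 0.67 ± 0.19. GBSS1, a starch synthase, fell by 1.07 ± 0.11. STS, which makes stachyose, rose by 2.24 ± 0.25, and DIN10, an alkaline galactosidase family member, fell by 0.77 ± 0.25 (not called without bent replicate 2). Of 14 heat shock genes 1 rose (7.14%) and 2 fell (14.3%), below these shares of all genes. HSP101 rose from 487.4, 363.8 and 657.0 to 1532, 1405 and 1853 (1.67 ± 0.22, adjusted p = 6.43e-13) and HSP17.6II fell by 0.93 ± 0.40 (not called without any 1 of 4 libraries, bent 1 or 3 or mature 1 or 3), while HSP70 and HSP90.1 had 0.58 ± 0.43 and 0.49 ± 0.32.

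The study asked how DNA methylation takes part in the response of seeds to heat. In the list of its enzymes, 7 of 17 rose (41.2%) and 5 fell (29.4%), against 23.4% and 22.5% of all genes tested. CMT3, the methyltransferase of CHG sites, fell from 951.7, 1125 and 1214 to 293.0, 521.1 and 311.6 (log2 -1.54 ± 0.16, adjusted p = 3.04e-19), and MET1, which copies CG methylation at replication, fell by 0.77 ± 0.11. The chromatin remodeller CHR1, also called DDM1, fell by 1.01 ± 0.13. AGO4, of the small RNA pathway, rose from 6553, 5424 and 6085 to 10113, 7932 and 11192 (0.69 ± 0.13, adjusted p = 9.92e-07), and CMT2 and DRM2 by 0.47 and 0.37. The demethylases DML1, also called ROS1, and DML2 rose by 0.46 ± 0.14 and 0.41 ± 0.07, DML3 rose from 23, 12.5 and 21.5 to 273.2, 130.8 and 112.5 (3.17 ± 0.32), and DME had 0.11 ± 0.06 (adjusted p = 0.142). With totals as scale 2 of the list rose and 7 fell, and the rises of DML1, DML2, CMT2 and DRM2 were no longer called.

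Outside the lists, the genes with the steepest rises at a mean normalised count of at least 100 were nearly silent in bent seeds, so only a lower bound can be given against a floor of 3 counts per library. AT1G14950, of a lipid transport family, was at least 1115-fold higher, with 7569, 1329 and 1140 in mature seeds. AT2G41390 and its neighbour AT2G41400, both extensin family members, were at least 961.4-fold and 330.1-fold higher. The cupins AT3G04170 and AT3G04190, members of 1 gene cluster on chromosome 3, were at least 877.3-fold and 215.2-fold higher. AT1G21540, an acyl-activating enzyme, was at least 525.5-fold higher, with 1624, 1368 and 1737, AT3G60730, a pectin methylesterase family member, at least 429.3-fold, the oxidase RBOHA at least 130.7-fold and AT1G29000 at least 97.2-fold. The mature replicates differed widely for most of them, with replicate 1 highest, as in AT3G04170 with 5581, 2050 and 264.2. AT2G05580, a glycine-rich protein gene, had counts at both stages and rose from 10.6, 4.47 and 3.59 to 22048, 4715 and 6309 (log2 10.79 ± 1.16, adjusted p = 5.9e-19).

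Among genes with a mean normalised count of at least 100, the steepest fall was that of AT3G14520, a terpene synthase family member, from 193.2, 253.0 and 162.5 to 3.71, 1.02 and 4.74 (log2 -6.05 ± 0.65, adjusted p = 9.65e-19), after a heart mean of 2710. AT4G15750, an invertase inhibitor family member, had gone from 59012 in heart seeds to a bent range of 418.3 to 1078 and fell again by 3.72 ± 0.46. CYP86C1, AT5G51105 and AT5G53100 were also highest in heart seeds and fell by 3.83, 3.56 and 3.49. In contrast, JMT, which methylates jasmonic acid, peaked in bent seeds, with 3535, 3971 and 4194 against 249.7, 303.4 and 169.4 in mature seeds (-4.02 ± 0.83, adjusted p = 7.78e-06). The dirigent-like AT4G11180 (-3.96 ± 1.01), the OFP-like AT3G52550 (-3.84 ± 0.33) and the pectin acetylesterase AT1G09550 (-3.59 ± 0.40) had the same shape, with heart means of 96.5, 54.8 and 44.4.

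The genes with the most counts, with no correction for length, differed between the stages. In bent seeds AT1G62060, of unknown function, led with 0.615 to 0.716% of the counts, followed by the lipid transfer protein AT5G38160, EPR1, AT5G38170, which is another of these proteins, GRP7, GER2, CAB1, AT5G60390, RBCS1A and PRXR1. AT1G62060 and AT5G38160 had changes of -0.27 ± 0.71 and -0.03 ± 0.25, and AT5G38170 fell by 1.31 ± 0.25. In mature seeds CRU3 had the highest mean, with 1.71 to 3.73%, although SESA3 was above it in replicate 2, and 7 of the first 10 were storage protein or oleosin genes. The others were EPR1 and AT1G62000 and AT1G62080, which belong to the gene cluster of AT1G62060. AT1G62000 rose from 8422, 3258 and 2006 to 236767, 174728 and 199498 (5.48 ± 0.80, adjusted p = 8.83e-11), and AT1G62080 had 3.74 ± 0.75 with its adjusted p withheld. GRP7, a clock-controlled RNA-binding protein, fell by 0.40 ± 0.15 and GER2, a germin-like protein, rose by 0.82 ± 0.29, and neither was called without mature replicate 3, nor GRP7 without bent replicate 2 or GER2 without bent replicate 3. PRXR1 rose by 0.74 ± 0.16 and the elongation factor AT5G60390 had 0.05 ± 0.16.

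The same step was compared with that at the control temperature, with which it shares no library. At 23 °C 10797 genes (50.3%) were called. Of the 5016 higher at 25 °C, 3985 were higher at 23 °C (79.4% of either list), and 5 were lower. Of the 4820 lower, 4069 were lower (84.4%, or 70.4% of the 23 °C list) and 1 was higher. Across 15287 genes with a mean normalised count of at least 100 the log2 changes had r = 0.918, and a rank correlation of 0.918, as a description. The difference of the changes was called for 8 genes (0.0373%), all more positive at 25 °C, while 1431 had an unadjusted p under 0.05. A filter on mean counts withheld the adjusted p from 17466 of the 21445 genes tested. These were not only weakly expressed genes, as 15287 genes reached a mean of 100. The 8 calls thus come from the remaining genes alone. The edgeR quasi-likelihood test called 0, with 1224 under 0.05 unadjusted. Replicate 3 of bent seeds at 23 °C departed from the other bent libraries in scale. Its counts were divided by 0.8288, near the 0.8227 to 0.842 used for mature seeds at 23 °C. For bent replicates 1 and 2 the divisors were 1.075 and 1.044. Yet it held the most counts of the 27 libraries. The cause was not tested, and the overlap, r and the 8 calls above include it. Without it the difference was called for 4 genes, 2 of them among the 8. At 25 °C 5442 genes were then higher and 5290 lower. Among the 8 were AT2G41390, AT3G04170, AT1G14950 and FACT, all nearly silent in bent seeds at 25 °C. AT2G22795 and MAML-4, a methylthioalkylmalate synthase relative, were called too, with 0.34 ± 0.09 and 0.25 ± 0.07 at 25 °C and -0.25 and -0.16 at 23 °C.

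The 27 °C step, which shares no library with it either, differed more. At 27 °C 10410 genes (48.5%) were called, and r across 15459 genes was 0.744, with a rank correlation of 0.854. Of the genes higher at 25 °C, 3754 were higher at 27 °C (74.8%, or 71.1% of that list) and 60 lower, and of those lower, 3666 were lower (76.1%, or 71.5%) and 18 higher. The difference was called for 1072 genes (5%), with 269 more positive and 803 more negative at 27 °C. Of the 803, 438 were higher in mature than in bent seeds at 25 °C.

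The suberin genes were among them. Of 15, 12 had a called difference, against 5% of all genes tested. The median change of the list was 1.15 at 27 °C, 5.30 at 25 °C and 4.87 at 23 °C. All 3 bent libraries at 27 °C lay above all 3 at 25 °C for each of the 15, as for 14 of 14 heat shock genes, 11 of 13 storage protein genes and 20.4% of all genes tested. MYB9 had a mean of 877.1 in bent seeds at 27 °C against 1.19 at 25 °C, and mature means of 1242 and 1504, so the bent levels lay further apart than the mature ones. The log2 change was 0.50 at 27 °C and the difference had an adjusted p of 3.44e-19. RWP1 showed the same, with bent means of 7965 and 328.9 and mature means of 12252 and 13001 (log2 0.62 at 27 °C, adjusted p of the difference 2.21e-12). MYB107, another suberin regulator, had bent means of 598.5 and 187.5 and mature means of 444.3 and 1374. The exceptions were FACT, FAR4 and KCS20, whose differences had adjusted p-values of 0.243, 0.056 and 0.28.

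**Figure D5:**
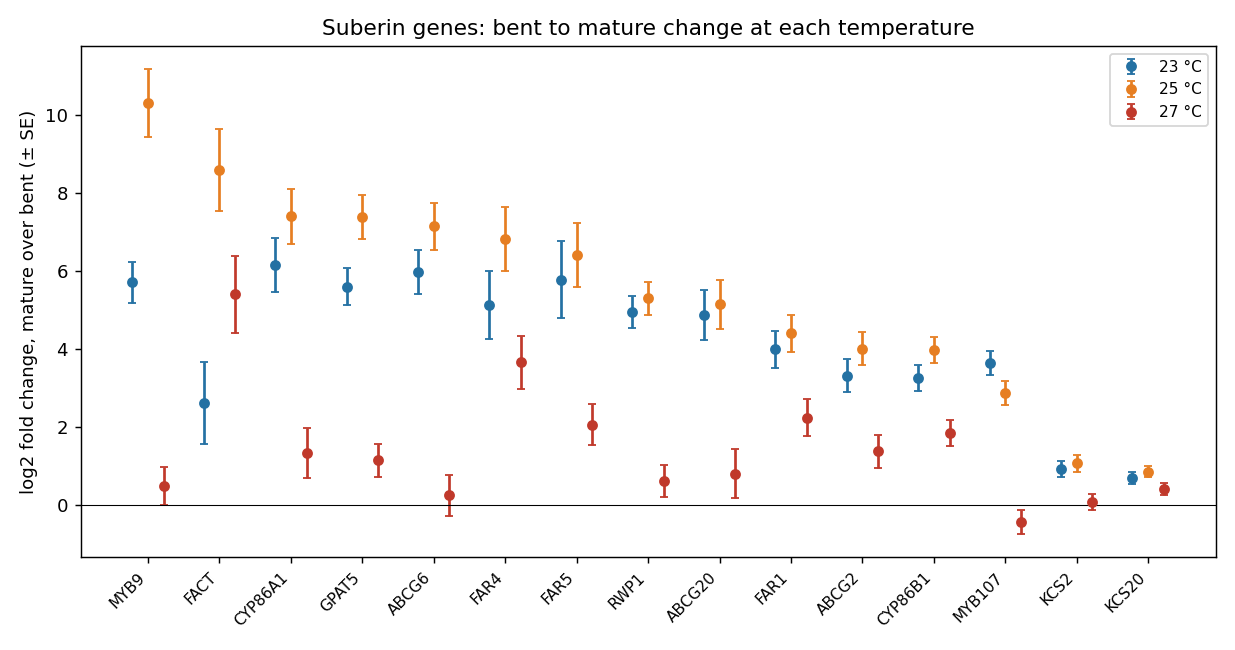
Log2 fold change from bent to mature seeds (± SE of the fit) of 15 suberin genes at 23, 25 and 27 °C. At 25 °C the values run from 0.86 to 10.30 and lie above the 27 °C value for each gene, which for MYB107 is below 0.

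Outside the list, and at a mean normalised count of at least 100, the smallest p for a more negative change at 27 °C was that of EXT3, an extensin. It had 4769, 3973 and 3684 in bent and 27645, 44044 and 60083 in mature seeds at 25 °C (log2 3.41 ± 0.26), but 16216 and 4203 on average at 27 °C (-1.95, adjusted p of the difference 2.96e-42). The lipid transfer genes AT3G22600 and AT3G22620, which are neighbours, rose by 5.82 and 7.10 at 25 °C and had -0.53 and -0.55 at 27 °C. AT1G74460, a lipase family member, rose by 7.18 and had 0.14, and AT4G26580 rose by 1.73 and had -0.96. In the other direction PEPC1, a phosphatase, had 0.49 ± 0.28 at 25 °C and 2.99 at 27 °C, and MP, the auxin response factor of the embryo axis, -0.04 ± 0.07 and 0.56. AT1G13970 and SAH7 fell at 25 °C by 0.66 and 0.62 and had 0.82 and 0.79 at 27 °C, and AT2G01610 fell by 2.03 and had -0.02. Of 13 storage protein genes the difference was called for 1, AT1G03890, of 8 oil body genes for 0 and of 19 mitosis genes for 0, with the adjusted p of CRA1 and AT3G01570 withheld. Over all genes tested it was called for 5%.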

How the data were processed

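Whole seeds were profiled by RNA sequencing, and the deposited table gave estimated counts per Araport11 transcript that the authors had made with Salmon, which places reads shared by similar transcripts by estimate. Transcripts were summed per locus and rounded, which left 27587 loci. Every sample column was used. Symbols, descriptions and promoters came from RefSeq TAIR10.1. The 21445 genes that reached 10 counts in 3 or more of the 27 libraries were fitted with DESeq2 1.42.0 in R 4.3.3, with 9 groups in 1 model, median-of-ratios size factors and Benjamini-Hochberg adjustment at 0.05. The code was tested on simulated data. Normalised counts are estimated counts divided by the size factor. Changes are log2, mature over bent, ± SE, unless a fold is given.

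Named genes were the 10 per direction with the largest change, the 5 transcription factors per direction, the 2 members with the most counts and the most changed called members of each list, all storage, oil body and regulator genes, the 5 per direction with the smallest p for a temperature difference, and the 10 with the most counts. The change ranks took called genes with a mean normalised count of at least 100 and no overlap. EM1, BAN, 8 suberin genes and 6 DNA methylation genes were named after their values were seen. The members and lists were chosen with earlier results of these data known. Alternatives were edgeR 4.0.16, other scalings and filters, a threshold of 0.01, only the groups compared, a replicate block and each library left out.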

Additional observations from a re-analysis of the deposited data

Results flagged for a closer look

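For 47 named genes the test called a difference in the bent to mature change between temperatures. The values below are differences of log2 changes. Where bent seeds at 25 °C had 3 counts or fewer in every library they depend on how zeros are treated and are no bounds. Groups of 3 were not searched for stray samples.

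For 25 °C minus 23 °C the differences were 8.14 for AT2G41390, 9.28 for AT3G04170, 8.19 for AT1G14950, 5.95 for FACT, 0.59 for AT2G22795 and 0.41 for MAML-4.

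For 27 °C minus 25 °C, genes nearly silent in bent seeds at 25 °C had -19.54 (AT3G60730), -10.64 (AT2G41390), -10.36 (AT3G04170), -6.99 (AT1G14950), -9.56 (AT2G41400), -12.63 (AT1G21540), -9.09 (AT3G04190), -10.85 (RBOHA) and -9.78 (AT1G29000). Suberin genes had -9.80 (MYB9), -4.68 (RWP1), -4.33 (ABCG20), -6.22 (GPAT5), -6.06 (CYP86A1), -2.13 (CYP86B1), -2.16 (FAR1), -4.34 (FAR5), -1.0 (KCS2), -3.30 (MYB107), -2.63 (ABCG2) and -6.88 (ABCG6). Others that rose at 25 °C had -5.35 (EXT3), -6.35 (AT3G22600), -7.04 (AT1G74460), -2.69 (AT4G26580), -7.65 (AT3G22620), -3.77 (AT1G62000), -3.21 (GER2), -4.80 (AT1G03890), -0.99 (AP3), -0.70 (HAI1), -1.22 (HSP101), -1.31 (DML3) and -0.61 (AT1G21920).

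Genes that fell at 25 °C and had a lower value still at 27 °C had -4.89 (AT4G11180), -2.51 (AT3G52550), -1.77 (AT5G53100), -2.02 (GATA29) and -1.94 (ALE1). More positive at 27 °C were PEPC1 (2.5), AT2G01610 (2.01), AT1G13970 (1.48), SAH7 (1.41) and MP (0.59).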

How the results depend on the processing

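With library totals 1929 genes were higher and 10798 lower, 945 and 2707 by at least 2-fold, and AT2G22795 (-0.03) and MAML-4 (-0.11) changed sign. TMM gave 4851 and 4993. Among genes with a mean of at least 100, 817 were higher and 879 lower by at least 2-fold. Leaving out 1 library gave 4248 to 5442 higher and 4054 to 5290 lower, 1240 to 1533 and 1222 to 1741 by at least 2-fold. The difference from 23 °C, 8 genes, became 0 with edgeR, 3 with totals, 4 without independent filtering, 0 at 0.01, 2 with only the groups compared, and 1 to 23 with 1 library left out. The difference from 27 °C became 629 at 0.01 and 823 to 1389 with 1 library left out. Same-numbered replicates did not deviate together (r = 0.0999, 0.342 and -0.178). With a replicate block 5013 genes were higher and 4786 lower, 1419 and 1506 by at least 2-fold, and the differences numbered 0 and 1031. With only the groups compared 3969 genes were higher and 3773 lower, and with the block as well 3533 and 3242. With both, the differences numbered 2 and 1307. The causes were not tested.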
